A study of Mus musculus with 19 samples.

Results

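Gene expression in single mouse morulae labelled Gabpb1 KO was set directly against that in morulae labelled Alyref KO. The members were chosen by their labels: 3 morulae labelled Gabpb1 KO and 2 labelled Alyref KO, 5 of the 19 embryos sequenced. Sperm and oocytes of heterozygous parents (Alyref+/- with Alyref+/-, or Gabpb1+/- with Gabpb1+/-, all of the B6D2F1 strain) were joined by in vitro fertilisation. The embryos then grew in KSOM, a medium for preimplantation embryos, and were taken at 96 hours after insemination. Each embryo was lysed alone, ERCC spike-in RNA was added, and polyadenylated RNA was amplified over 16 PCR cycles. An embryo is labelled KO because, per the submitters, its own library lacked reads from the part of the targeted gene that was deleted. The other embryos of each cross are called non-KO here and may be wild type or heterozygous: 3 morulae of the Alyref cross and 2 of the Gabpb1 cross serve to show how the crosses differ without a KO. Both crosses were made apart, so cross, fertilisation and any batch cannot be told apart from the genotype. Each library is 1 embryo, so p-values measure the spread between embryos. For the tests of single genes that spread is pooled within the groups of all 19 embryos, blastocysts included, and is not that of the KO morulae alone. Whether embryos of a cross share parents is not given in the sources used here.

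ALYREF is an adaptor of the TREX complex, which joins spliced mRNA to the export receptor NXF1-NXT1 with the THO complex and the helicase DDX39B (UAP56). GABP is a transcription factor in which an ETS-family DNA-binding subunit, GABPA, pairs with a transactivating subunit, GABPB1 or GABPB2. It binds the core CCGGAAG in many promoters of housekeeping and mitochondrial genes, Tfam among the described targets.

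The core CCGGAAG is where these data meet sequence: as given further on, it stood in more of the promoters of genes lower in morulae labelled Gabpb1 KO than in promoters at large. The 4 promoters below were chosen as those with the smallest adjusted p among the named genes that were lower and hold the core. They are from RefSeq (GRCm38.p6), read 5′ to 3′ on the strand of the gene from 250 bases before a RefSeq transcription start to 30 after. Tprkb has 3 windows in the table, of which the first holds 0 copies of the core, and the window printed is that of a later start. The other 3 genes have 1 window each. Capitals mark the core on either strand (CCGGAAG or its reverse complement CTTCCGG), and the capitals in Tprkb are 2 overlapping copies, which begin 8 and 11 bases after the start. In Mrps21 the core begins 18 bases after the start, in Mrpl27 55 bases before it (position -55), and in Nup107 at positions -250, -10 and 10. A match is a description of the letters, not of a bound site.
Tprkb (chr6:85915469-85915748, + strand): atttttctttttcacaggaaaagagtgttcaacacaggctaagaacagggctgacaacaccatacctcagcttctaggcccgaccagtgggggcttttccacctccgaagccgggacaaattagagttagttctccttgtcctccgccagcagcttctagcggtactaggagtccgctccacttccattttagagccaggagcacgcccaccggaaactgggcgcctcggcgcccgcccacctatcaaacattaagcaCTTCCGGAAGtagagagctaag
Mrps21 (chr3:95871485-95871764, - strand): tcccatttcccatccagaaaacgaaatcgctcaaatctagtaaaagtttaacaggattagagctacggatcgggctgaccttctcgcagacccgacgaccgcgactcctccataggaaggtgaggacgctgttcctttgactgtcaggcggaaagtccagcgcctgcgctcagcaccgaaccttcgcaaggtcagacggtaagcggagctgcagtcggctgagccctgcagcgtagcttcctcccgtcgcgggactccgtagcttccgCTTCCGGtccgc
Mrpl27 (chr11:94653541-94653820, + strand): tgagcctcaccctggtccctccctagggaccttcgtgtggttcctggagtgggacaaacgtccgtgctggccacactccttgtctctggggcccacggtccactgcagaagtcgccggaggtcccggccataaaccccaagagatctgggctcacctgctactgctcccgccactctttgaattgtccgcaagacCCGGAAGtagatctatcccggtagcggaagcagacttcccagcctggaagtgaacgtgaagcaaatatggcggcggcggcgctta
Nup107 (chr10:117792676-117792955, - strand): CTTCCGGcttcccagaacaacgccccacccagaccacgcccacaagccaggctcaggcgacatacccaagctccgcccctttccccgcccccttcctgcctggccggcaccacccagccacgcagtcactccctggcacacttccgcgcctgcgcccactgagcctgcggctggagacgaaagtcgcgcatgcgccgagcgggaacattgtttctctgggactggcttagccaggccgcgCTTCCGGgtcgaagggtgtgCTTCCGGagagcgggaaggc

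Counts assigned to genes came to 7.49 and 15.2 M (megacounts) in the 2 Alyref KO libraries and to 11.2, 11.3 and 14.4 M in those labelled Gabpb1 KO. The non-KO morulae had 12.9 to 19.2 M. The profiles of log2(CPM + 1) correlated at r 0.967 between the 2 Alyref KO morulae, 0.925 to 0.951 among those labelled Gabpb1 KO and 0.924 to 0.941 between the groups, across genes. The log2 ratio of gene counts to ERCC counts was 6.94 and 6.81 in Alyref KO morulae and 7.63, 5.66 and 6.67 in those labelled Gabpb1 KO. The means, 6.65 ± 0.99 (SD, n = 3) for labelled Gabpb1 KO and 6.87 ± 0.09 (SD, n = 2) for Alyref KO, did not differ by an exact two-sided permutation test (p = 0.7, smallest possible p 0.1). Y-linked transcripts were present in both Alyref KO morulae (153 and 219 CPM) and in the first and second labelled Gabpb1 KO morulae (249 and 470 CPM), but stood at 0.142 CPM in the third.

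The targeted genes were checked first. Alyref (chr11:120592121-120598365, - strand) stood at 47.8 and 58.5 CPM (counts scaled to a common library total) in the 2 Alyref KO morulae. It stood at 184, 228 and 171 CPM in the morulae labelled Gabpb1 KO, and at 162 to 291 CPM in the 5 non-KO morulae. The 2 Alyref KO morulae were thus below the other 8. The log2 difference, labelled Gabpb1 KO minus Alyref KO as throughout, was 1.87 (SE 0.29, adjusted p = 0.00321).

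Gabpb1 (chr2:126627442-126676337, - strand) went against its label. The 3 morulae labelled Gabpb1 KO held 78.2, 259 and 150 CPM of Gabpb1, against 51.0 and 56.8 CPM in Alyref KO morulae and 53.1 to 106 CPM in the non-KO morulae. Counts over a whole gene cannot show which exons are missing, so they neither show nor refute the deletion. Gm27003 on the opposite strand and Gm23753 on the same strand overlap Gabpb1, and their reads may not be separable from its own. The group is therefore called "labelled Gabpb1 KO" here. The log2 difference of Gabpb1 was 1.59 (SE 0.40, adjusted p = 0.0366). Without the second labelled Gabpb1 KO morula it was 1.09 and no longer passed (adjusted p = 0.0993), and it did not pass without the third (0.0576) or without either Alyref KO morula (0.209 and 0.18). Its DNA-binding partner Gabpa measured 241, 290 and 496 CPM in labelled Gabpb1 KO and 210 and 235 CPM in Alyref KO (log2 difference 0.62, adjusted p = 0.229).

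**Figure D1:**
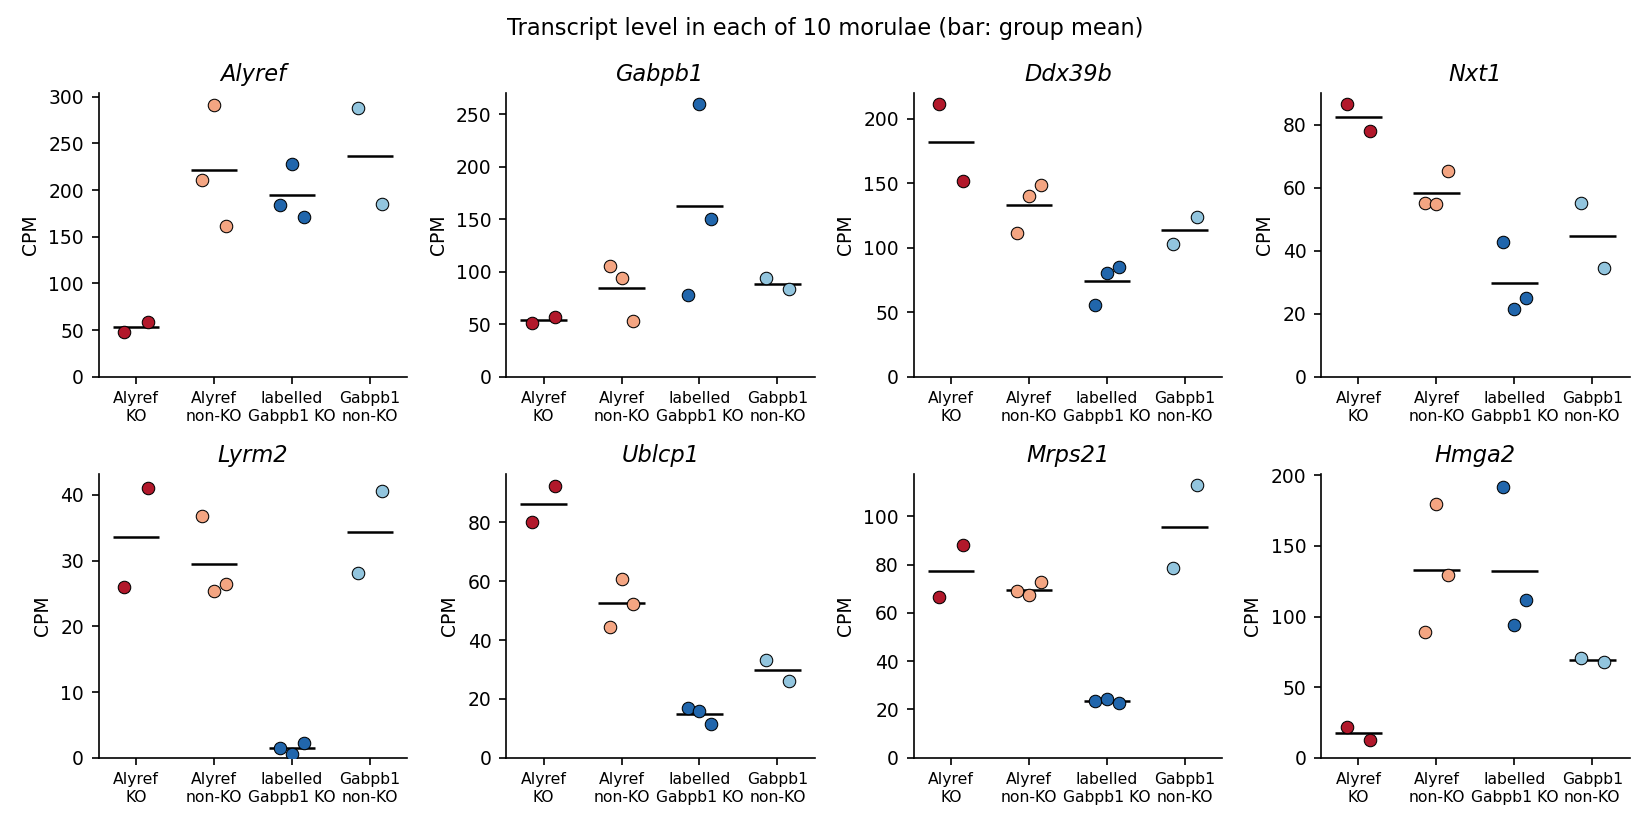
CPM (y axes, linear from 0) of 8 genes in each of 10 morulae, grouped on the x axes by cross and label, with a bar at each group mean. Alyref is below 60 CPM only in the 2 Alyref KO morulae, Gabpb1 is not low in the morulae labelled Gabpb1 KO, Lyrm2, Ublcp1 and Mrps21 are lowest in the labelled Gabpb1 KO group, and Hmga2 is lowest in the Alyref KO group.

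Of 18410 genes tested, 841 (4.57%) differed between the KO groups at an adjusted p under 0.05, 378 higher (2.05%) and 463 lower (2.51%) in morulae labelled Gabpb1 KO. Protein-coding genes made up 687 of the 841. In 839 (4.56% of the genes tested) the values of the KO groups did not overlap, as they did not in 6089 (33.1%) of all genes tested. The non-KO morulae of the crosses differed from each other in 342 genes (1.86%), 218 higher (1.18%) and 124 lower (0.674%) in the Gabpb1 cross. In 167 genes (0.907%) the KO difference itself differed from the non-KO difference, 66 upward (0.359%) and 101 downward (0.549%). When the 5 KO morulae were fitted without the other embryos edgeR called 0 genes (2425 at an unadjusted p under 0.05). When counts were scaled to ERCC it called 9, 0 higher and 9 lower. Without the first or the second Alyref KO morula 215 and 148 genes were called, with the lone embryo left assumed to vary like the other groups. Of the 58 genes named here by rule, 15 passed with each of the 5 KO morulae left out in turn: Lyrm2, Ublcp1, Tprkb, Faap20, Stn1, Wfdc15a, Mcm3, Mrps21, Mrpl27, Fastkd3, Tnfrsf9, Faiml, Tmem160, Lsm7 and Alyref.

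The 841 genes fall into patterns once the 5 non-KO morulae are set beside them. These genes were selected for a difference between the KO groups, which sets those groups apart. Shares above those of all genes are therefore in part built in by the selection. Of the 463 lower genes, 236 (51.0%) had the 3 morulae labelled Gabpb1 KO below all 7 others, an arrangement seen in 2.91% of all genes tested. In 217 of the 463 (46.9%) the 2 Alyref KO morulae were above all 8 others (4.85% of all genes tested), and 68 were in both sets (0.668% of all genes tested had both KO groups apart). Of the 378 higher genes, 236 (62.4%) had the 2 Alyref KO morulae below all 8 others (3.92% of all genes), and 80 (21.2%) had the labelled Gabpb1 KO morulae above all 7 others (1.88% of all genes). In 94 of the higher genes (24.9%) and 96 of the lower genes (20.7%), all 5 morulae of the Gabpb1 cross lay on one side of all 5 of the Alyref cross, against 3.76% of all genes tested. In 96 of the higher and 78 of the lower genes neither KO group stood apart from the other morulae, as in 87.1% of all genes tested. A called difference could therefore stand with low transcripts in one KO, high transcripts in the other, or a difference between the crosses.

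**Figure D2:**
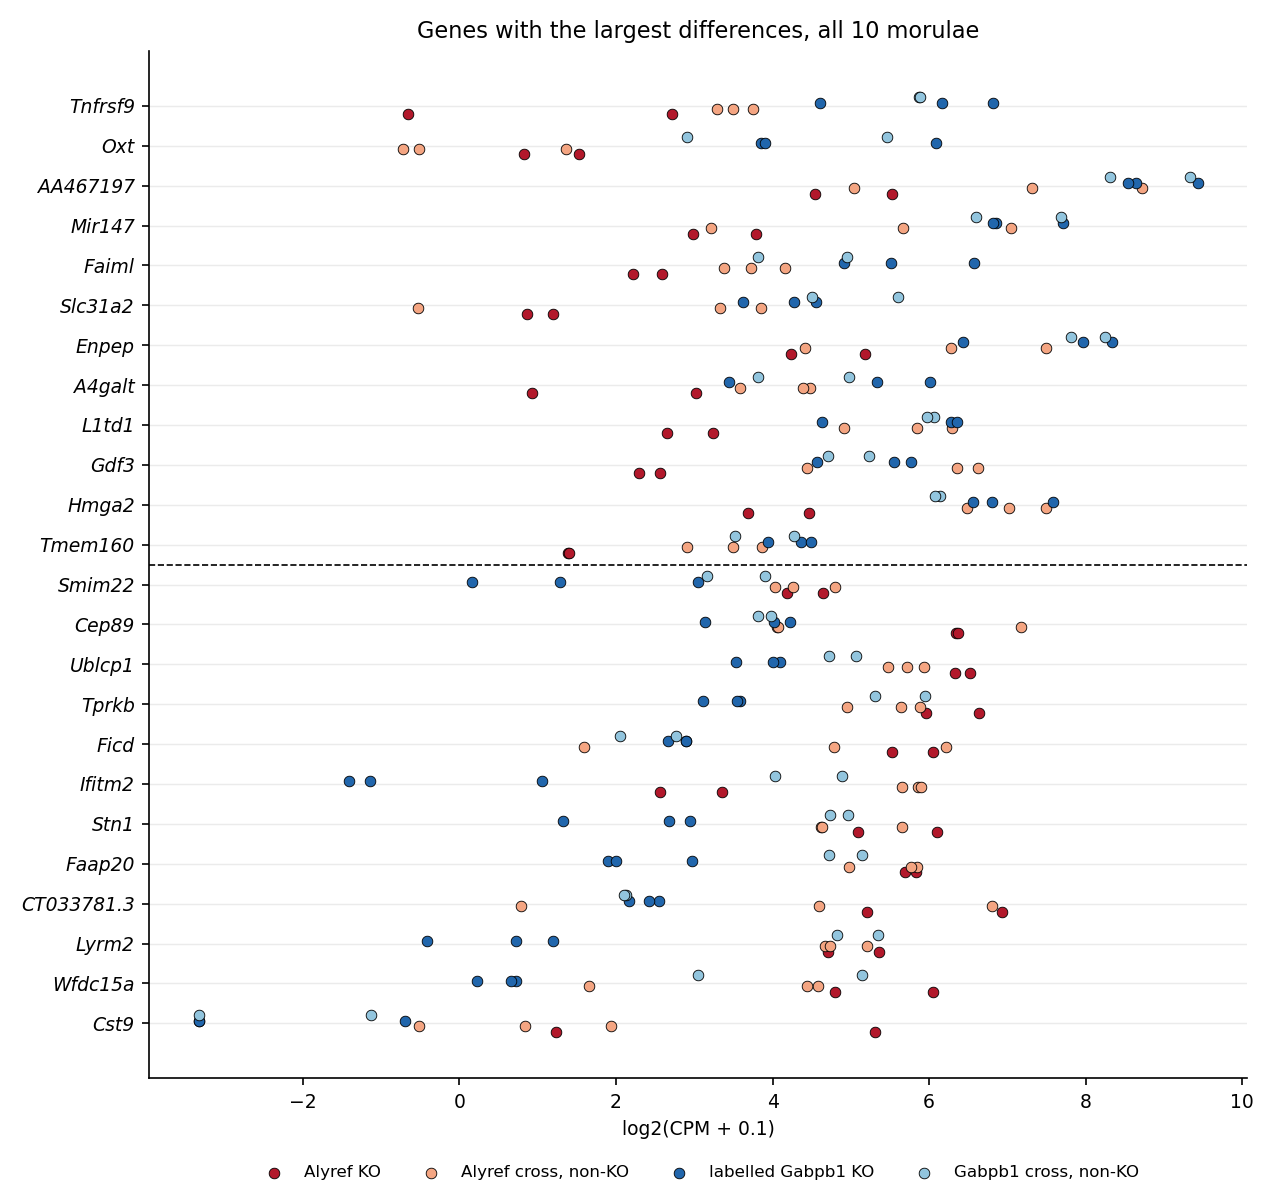
log2(CPM + 0.1) (x axis) of the 12 genes with the largest positive (above the dashed line) and the 12 with the largest negative difference (below it), 1 point per morula, coloured by group. In the upper part the red Alyref KO points lie left of the dark blue labelled Gabpb1 KO points, in the lower part right of them, and the paler non-KO points show which of the KO groups stands apart.

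The genes low in the morulae labelled Gabpb1 KO included Lyrm2, Ublcp1, Tprkb, Faap20 and Stn1. Lyrm2 (chr4:32800253-32801559, + strand), which encodes a LYR-motif protein of mitochondria, measured 1.55, 0.648 and 2.20 CPM in the morulae labelled Gabpb1 KO. It measured 26 and 41.1 CPM in Alyref KO and 25.3 to 40.6 CPM in the 5 non-KO morulae. The 3 morulae stood apart from the other 7 by more than 10-fold, with a log2 difference of -4.49 (SE 0.39, adjusted p = 4.91e-05). The difference between non-KO morulae was 0.22, and the KO difference minus the non-KO difference was -4.71 (adjusted p = 0.000767).

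Ublcp1, a phosphatase that acts on the proteasome, measured 17.0, 15.9 and 11.5 CPM in labelled Gabpb1 KO, 80.3 and 92.2 CPM in Alyref KO and 26.2 to 60.9 CPM in non-KO morulae. Both KO groups stood apart from the non-KO embryos, in opposite directions, with a log2 difference of -2.54 (SE 0.23, adjusted p = 4.91e-05). The values of the crosses did not overlap without a KO either. They were 33.4 and 26.2 CPM in the Gabpb1 cross and 44.5 to 60.9 CPM in the Alyref cross (log2 difference -0.82, adjusted p = 0.0718). Tprkb, a subunit of the KEOPS complex that modifies tRNAs and whose promoter is printed above, measured 11.9, 8.52 and 11.6 CPM in labelled Gabpb1 KO. Alyref KO morulae held 62.4 and 99.4 CPM of it and non-KO morulae 30.8 to 61.6 CPM, again on both sides of the non-KO embryos (log2 difference -2.92, SE 0.30, adjusted p = 0.000117). Faap20, a member of the Fanconi anaemia core complex, stood at 3.62, 3.89 and 7.73 CPM in labelled Gabpb1 KO and 26.3 to 57.2 CPM in the other 7 morulae (log2 difference -3.40, SE 0.36, adjusted p = 0.000203). Stn1, of the CST complex that completes telomere replication, stood at 6.28, 2.41 and 7.59 CPM against 24.5 to 68.8 CPM (log2 difference -3.23, SE 0.43, adjusted p = 0.00157). Both genes were low in the labelled Gabpb1 KO group alone among the morulae. Genes on the opposite strand overlap Tprkb, Stn1 and Ublcp1, and since the strand setting of the counting is not given in the sources used here, reads of the pair cannot be told apart. The same limit holds for Hmga2, Tnfrsf9, Enpep, Fastkd3, Smg1, Top2a, Prdx2, Shmt2, Dnmt3l, Psmb10 and Eif2ak1, described further on. Annotated genes on the same strand overlap Ifitm2, Hmga2, Slc31a2, Ddx39b, Smg1, Top2a, Eif4e3 and Eif4a1, and reads could be split between them.

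Wfdc15a, of the WAP four-disulfide core family, measured 1.55, 1.48 and 1.06 CPM in labelled Gabpb1 KO, 27.7 and 66.0 CPM in Alyref KO and 3.04 to 35.2 CPM in non-KO morulae (log2 difference -5.10, SE 0.78, adjusted p = 0.00272). Ifitm2, an interferon-induced membrane protein with close paralogues among which reads could be shared, was low in both KO groups: 1.98, 0.278 and 0.355 CPM in labelled Gabpb1 KO, 10.2 and 5.80 CPM in Alyref KO and 16.2 to 59.5 CPM in non-KO morulae. Its called difference (-3.18, SE 0.62, adjusted p = 0.0105, 0.0783 without the first Alyref KO morula) is thus one between a low and a lower level. Mcm3, a subunit of the replicative helicase, measured 15, 8.79 and 17.1 CPM in labelled Gabpb1 KO, against 64.8 and 44.4 CPM in Alyref KO and 33.9 to 103 CPM in non-KO morulae (log2 difference -2.0, SE 0.33, adjusted p = 0.004). It was the 1 called lower gene of 33 tested in the replication and cell cycle list, beside 2.51% called lower of all genes. Cst9, a cystatin, measured 2.24 and 39.6 CPM in Alyref KO and 0.516, 0 and 0 CPM in labelled Gabpb1 KO. Non-KO morulae held 0.597, 3.71 and 1.68 CPM in the Alyref cross and 0.356 and 0 CPM in the Gabpb1 cross. Every morula of the Gabpb1 cross was thus below every one of the Alyref cross. Cst9 had the most negative difference of the named genes (adjusted p = 0.0316) but rested on uneven values. It was not called without the second Alyref KO morula (0.392) or the second or the third labelled Gabpb1 KO morula (0.0841 and 0.0927).

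For the genes with a promoter in the RefSeq table (9047 of the 11212 protein-coding genes tested off chromosome 18, 80.7%), CCGGAAG was searched on both strands from 250 bases before to 50 after the start, in any window of a gene. It occurred in 39.9% of genes lower in labelled Gabpb1 KO (118 of 296), in 21.1% of all genes tested (1910 of 9047) and in 13.1% of higher genes (35 of 268). Among all 32851 windows in the table the share was 8.86%. The longer CCGGAAGT, which contains the core, stood in 24.3%, 9.72% and 6.34% of lower, tested and higher genes. The palindromic motif of the factor NRF1, likewise searched on both strands, stood in 1.69%, 2.39% and 3.73%. With more copies the called-lower share went from 2.49% of 7137 genes with 0 copies to 5.15% of 1535 with 1, 10.8% of 316 with 2 and 8.47% of 59 with 3 or more. The median log2 difference in these classes was 0.13, -0.10, -0.24 and -0.43. At or under the median GC content (61.3%) 6.94% of genes with the core and 2.83% of those without were called lower, and above it 5.51% and 2.13%.

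A share above that of all genes tested was also present without a KO. Of the 76 matched genes lower in the non-KO morulae of the Gabpb1 cross, 35.5% (27) held CCGGAAG, and of the 76 whose KO difference lay below the non-KO difference, 32.9% (25) did. By pattern of called-lower genes the share was 43.6% (65 of 149) with the labelled Gabpb1 KO morulae below all 7 others, 39.1% (54 of 138) with the Alyref KO morulae above all 8 others, 42.6% (20 of 47) with neither KO group apart and 51.7% (31 of 60) with the crosses apart. The patterns overlap, and no difference between them was tested. Of called genes lower by 2 or more on the log2 scale, 24.7% (20 of 81) held it, beside the 21.1% of all genes tested. Between the non-KO morulae, genes with 0, 1, 2 and 3 or more copies were called lower in 0.687%, 1.30%, 1.90% and 1.69%. Their median log2 differences were 0.12, -0.007, -0.11 and -0.15. For the KO difference minus the non-KO difference, 0.715%, 1.17%, 2.22% and 0% were called lower, with medians of 0.06, -0.10, -0.06 and -0.04. The windows of Lyrm2, Ublcp1, Faap20 and Stn1 have no match, which says only that these letters are not in those windows.

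**Figure D3:**
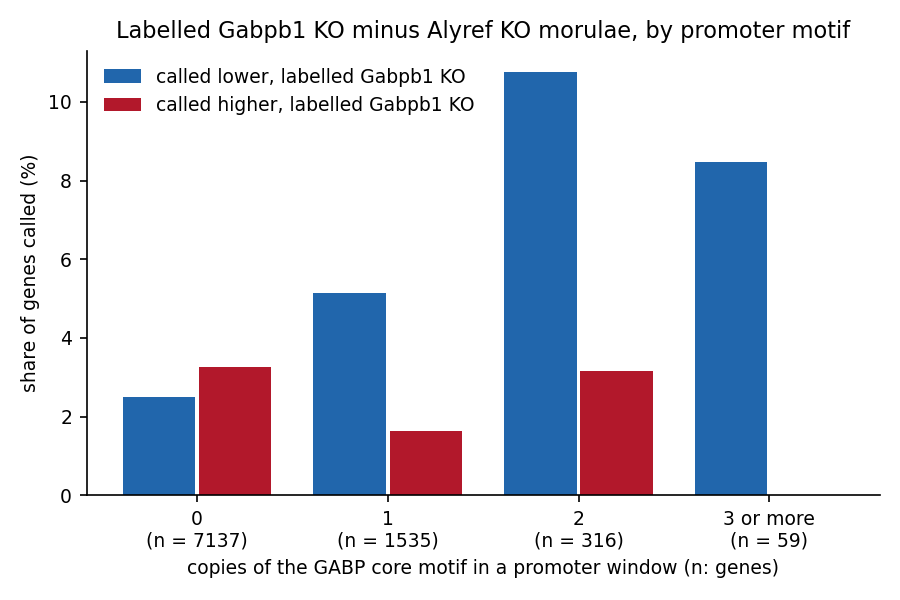
Share of tested genes (y axis, %) called lower (blue) or higher (red) in morulae labelled Gabpb1 KO than in Alyref KO, by the number of CCGGAAG copies on either strand in a promoter window (x axis, with the number of genes). The blue bars go from 2.49% at 0 copies to 10.8% at 2 copies, and the red bars stay at or below 3.26%.

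Mitochondrial genes were called in both directions. Of 78 mitochondrial ribosomal protein genes tested, 5 were called higher and 7 lower in labelled Gabpb1 KO (2.05% and 2.51% of all genes), with a median log2 difference of -0.14 beside 0.04 over all genes tested. Without the first Alyref KO morula these counts were 1 and 3, and without the second 0 and 2. Mrps21, a small-subunit protein with the core in its promoter, had 23.5, 24.3 and 22.8 CPM in labelled Gabpb1 KO, 66.4 and 88.3 CPM in Alyref KO and 67.5 to 113 CPM in non-KO morulae. The 3 morulae lay close together and below the other 7 (log2 difference -1.72, SE 0.24, adjusted p = 0.00179, against 0.46 between non-KO morulae). Mrpl27, a large-subunit protein, had 48.0, 35.2 and 32.8 CPM against 68.9 to 114 CPM in the other 7 morulae (log2 difference -1.42, SE 0.21, adjusted p = 0.00242). Mrpl49 went the other way, with 78.0 and 68.6 CPM in Alyref KO and 133 to 235 CPM in the other 8 morulae (log2 difference 1.48, SE 0.26, adjusted p = 0.00626, but 0.0847 without the second Alyref KO morula).

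Tfam, which packages and transcribes mitochondrial DNA, measured 25.6, 36.2 and 15.8 CPM in labelled Gabpb1 KO, 65.6 and 67.9 CPM in Alyref KO and 44.0 to 71.4 CPM in non-KO morulae. The 3 morulae were below the other 7 (log2 difference -1.37, SE 0.33, adjusted p = 0.03). The 11 described GABP targets tested had a median of 0.24, beside 0.04 over all genes tested, with 6 positive and 5 negative differences. Tfam was the 1 called gene of these 11, beside 4.57% called of all genes. The call did not hold without any 1 of 4 morulae (adjusted p 0.122 and 0.157 without an Alyref KO, 0.0559 and 0.0829 without the first or the third labelled Gabpb1 KO). In the list of 22 genes of mitochondrial DNA expression, edgeR called 0 higher and 2 lower, beside 2.05% and 2.51% of all genes (DESeq2 1 and 2, 5 in all at an unadjusted p under 0.05). The 2 were Tfam and Fastkd3, an RNA-binding protein of mitochondria. Fastkd3 was high in Alyref KO (123 and 107 CPM against 26.1 to 63.1 CPM in the other 8; log2 difference -1.60, adjusted p = 0.00352). Of the 13 mitochondrially encoded mRNAs, 0 were called by edgeR (1 at an unadjusted p under 0.05, 1 by DESeq2), with a median of 0.18.

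Nuclear genes of oxidative phosphorylation (OXPHOS) were called in 1 direction: by edgeR 13 of 81 were higher in labelled Gabpb1 KO and 0 lower (39 at an unadjusted p under 0.05, 21 and 0 by DESeq2), beside 2.05% higher and 2.51% lower of all genes tested. The median of the list was 0.49. With a labelled Gabpb1 KO morula left out, 7 to 14 were called. The count fell further without either Alyref KO morula, which leaves 1 in that group. Calls over all genes fell in those fits as well, and whether this list fell more than the rest was not tested. The medians under the other scalings tried, 0.49 with DESeq2's size factors and 0.54 with ERCC, had the same sign. Ndufv3, a complex I subunit, measured 139, 164 and 143 CPM in labelled Gabpb1 KO, 56.8 and 71.8 CPM in Alyref KO and 63.7 to 98.0 CPM in non-KO morulae (log2 difference 1.21, SE 0.21, adjusted p = 0.00556). Ndufb6, another complex I subunit, measured 397, 563 and 324 CPM against 123 and 162 CPM, with 149 to 216 CPM in non-KO morulae of the Alyref cross and 304 and 302 CPM in those of the Gabpb1 cross (log2 difference 1.58, SE 0.28, adjusted p = 0.00563). Ndufs6, also of complex I, measured 399, 373 and 350 CPM against 155 and 237 CPM, with 283 and 300 CPM in the non-KO morulae of the Gabpb1 cross (log2 difference 0.93, SE 0.19, adjusted p = 0.0128). For Ndufb6 and Ndufs6 the values of the crosses did not overlap without a KO either. The 3 calls were lost without the first Alyref KO morula (adjusted p 0.0773 for Ndufv3, 0.0788 for Ndufb6, 0.139 for Ndufs6).

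Summed over the list, OXPHOS transcripts came to 17800 and 19590 CPM in Alyref KO and 26880, 26860 and 23850 CPM in labelled Gabpb1 KO. The non-KO morulae held 19940, 19260 and 25220 CPM in the Alyref cross and 26760 and 24510 CPM in the Gabpb1 cross. The non-KO median difference of the list was 0.32, and edgeR called 0 of 81 genes in the test of the KO difference against the non-KO difference (11 at an unadjusted p under 0.05, and 3 higher and 1 lower by DESeq2). Opposite-strand genes overlap Mrpl27, Mrpl49, Ndufb6 and Ndufs6, so their counts carry the same limit as Tprkb.

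The mRNA export genes other than Alyref were split. In the list of 25 tested, 2 were called higher, Alyref and Thoc1, and 3 lower, Nxt1, Ddx39b and Thoc6 (2.05% and 2.51% of all genes), with a median of 0.10. Without the first Alyref KO morula 1 was called higher and 0 lower. Nxt1, the partner of the export receptor NXF1, measured 86.6 and 78.0 CPM in Alyref KO, 42.7, 21.5 and 24.8 CPM in labelled Gabpb1 KO and 34.4 to 65.3 CPM in non-KO morulae. The Alyref KO morulae were above the other 8 (log2 difference -1.47, SE 0.27, adjusted p = 0.00686, but 0.0542 without the first). Ddx39b, the helicase that loads ALYREF, measured 212 and 152 CPM in Alyref KO, 103 to 149 CPM in non-KO morulae and 55.6, 80.7 and 85.3 CPM in labelled Gabpb1 KO. The groups lay in that order without overlap (log2 difference -1.30, SE 0.30, adjusted p = 0.0234). Its call was lost without either Alyref KO morula (0.19 and 0.0717) or the first labelled Gabpb1 KO morula (0.0558). Thoc1 and Thoc6, subunits of THO, were outside the naming rule and are given because the list's count is small: their log2 differences were 1.06 (adjusted p = 0.0406) and -1.04 (0.041). The receptor Nxf1 measured 144 and 95.3 CPM in Alyref KO and 82.4, 143 and 102 CPM in labelled Gabpb1 KO, overlapping. Alyref2, the paralogue of Alyref, was near its detection limit, at 1.00 and 4.75 CPM in Alyref KO and 2.96 to 5.6 CPM in labelled Gabpb1 KO.

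The lists of factors that act before and after export are read beside the 4.57% of all genes called. In the exon junction complex and nonsense-mediated decay list 2 of 19 were higher, the X-linked Upf3b (log2 difference 1.48, adjusted p = 0.046) and the kinase Smg1 (1.05, adjusted p = 0.0497), and 0 lower by edgeR or DESeq2 (4 in all at an unadjusted p under 0.05). Of 19 nucleoporins only Nup107 was called, at 33.7, 32.5 and 31.4 CPM in labelled Gabpb1 KO against 47.0 to 79.6 CPM in the other 7 morulae (log2 difference -1.19, adjusted p = 0.0193). Of 47 core spliceosome genes 3 were higher and 3 lower. Without either Alyref KO morula the calls of Upf3b (0.234 and 0.207), Smg1 (0.288 and 0.16) and Nup107 (0.122 and 0.0847) were lost. Lsm7, of the ring that binds U6 RNA and of the mRNA decay ring, measured 38.3 and 66.8 CPM in Alyref KO, 85.4 to 111 CPM in non-KO morulae and 194, 205 and 159 CPM in labelled Gabpb1 KO. The order was complete and without overlap (log2 difference 1.82, SE 0.26, adjusted p = 0.0021). Of 79 cytosolic ribosomal protein genes edgeR called 0 (4 at an unadjusted p under 0.05, 1 by DESeq2), with a median of 0.02, while between the crosses the non-KO median was -0.45.

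The genes low in the Alyref KO morulae included Hmga2, Gdf3 and L1td1. Hmga2, an architectural chromatin protein, measured 21.9 and 12.7 CPM in Alyref KO, 192, 94.2 and 112 CPM in labelled Gabpb1 KO and 67.5 to 180 CPM in non-KO morulae. The Alyref KO morulae were below the other 8 (log2 difference 2.94, SE 0.52, adjusted p = 0.00599), but the call was lost without the second (adjusted p = 0.0992). Gdf3, a TGF-beta family ligand, measured 5.81 and 4.80 CPM in Alyref KO and 21.6 to 98.8 CPM in the other 8 (log2 difference 2.98, SE 0.63, adjusted p = 0.016). L1td1, an RNA-binding protein derived from a LINE-1 element, measured 9.37 and 6.20 CPM in Alyref KO and 24.7 to 82.1 CPM in the other 8 (log2 difference 2.99, SE 0.51, adjusted p = 0.00491). In each of these genes the labelled Gabpb1 KO morulae lay among or close to the non-KO morulae. The call of L1td1 was lost without the second Alyref KO morula (adjusted p = 0.089), and that of Gdf3 without either (0.11 and 0.153).

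Tmem160 stood at 2.51 and 2.53 CPM in Alyref KO and 7.38 to 22.3 CPM in the other 8 morulae (log2 difference 2.94, SE 0.39, adjusted p = 0.00157). Ooep, a maternal-effect protein of the subcortical maternal complex, stood at 11.5 and 8.40 CPM in Alyref KO, 129, 27.0 and 34.4 CPM in labelled Gabpb1 KO and 34.9 to 60.6 CPM in non-KO morulae (log2 difference 2.68, SE 0.61, adjusted p = 0.0229). It was the 1 called gene of 13 maternal oocyte mRNAs tested of 30 listed, beside 4.57% called of all genes. All 13 had a positive difference (median 1.03, against -0.43 between the non-KO morulae). The second labelled Gabpb1 KO morula was highest in the summed level of the list (7180 CPM, against 3444 to 5908 CPM in the others). Without that morula the median was 0.65, and the call of Ooep was lost without either Alyref KO morula (0.119 and 0.189). Faiml, a paralogue of the apoptosis inhibitor Faim with which reads could be shared, stood at 5.94 and 4.54 CPM in Alyref KO and 10.3 to 94.9 CPM in the other 8 (log2 difference 3.44, SE 0.52, adjusted p = 0.00244).

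Other large positive differences mixed both patterns. Tnfrsf9, the 4-1BB receptor, measured 6.47 and 0.533 CPM in Alyref KO, 24.4, 71.9 and 113 CPM in labelled Gabpb1 KO, 9.70 to 13.3 CPM in non-KO morulae of the Alyref cross and 58.2 and 58.9 CPM in those of the Gabpb1 cross. All 5 morulae of the Gabpb1 cross were above all 5 of the Alyref cross (log2 difference 4.40, SE 0.80, adjusted p = 0.00726). AA467197 measured 45.9 and 23.3 CPM in Alyref KO and 689, 398 and 372 CPM in labelled Gabpb1 KO, but ran from 32.9 to 643 CPM in non-KO morulae (log2 difference 3.82, adjusted p = 0.0228). Mir147 lies within it on the same strand (3.77, adjusted p = 0.0262), so this is 1 signal counted under 2 names. Neither was called without an Alyref KO morula (AA467197 0.108 and 0.2, Mir147 0.128 and 0.218). Enpep, an aminopeptidase, Slc31a2, a copper transporter, and A4galt, which makes a globo-series glycolipid, had differences of 3.01, 3.20 and 3.01, all called. All 3 were lost without the second Alyref KO morula, and Enpep and Slc31a2 also without the first. With 1 labelled Gabpb1 KO morula left out, Slc31a2 was lost each time (adjusted p 0.0586, 0.0508 and 0.0851). Enpep was lost without the first or the third of these (0.0521 and 0.0537), and A4galt without the third (0.0708).

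Some calls followed the cross. Nanog, a pluripotency factor, measured 511 and 478 CPM in Alyref KO and 222, 153 and 205 CPM in labelled Gabpb1 KO. The non-KO morulae held 284 to 374 CPM in the Alyref cross and 171 and 89.2 CPM in the Gabpb1 cross, so every morula of the Gabpb1 cross was below every one of the Alyref cross. The log2 difference was -1.36 (SE 0.27, adjusted p = 0.0112) between KO groups and -1.38 (adjusted p = 0.0334) between non-KO groups, and their difference was 0.03 (adjusted p = 1). The call was lost without either Alyref KO morula (adjusted p 0.0713 and 0.0696). Snrpb, a core protein of spliceosomal snRNPs, went the same way, at -0.79 between KO and -0.80 between non-KO morulae (adjusted p 0.0161 and 0.0361). Oxt, the oxytocin gene, measured 2.77 and 1.67 CPM in Alyref KO and 14.4, 67.7 and 14.9 CPM in labelled Gabpb1 KO, and 3.88 (adjusted p = 0.0496) between KO stood beside 4.42 (adjusted p = 0.036) between non-KO morulae. Without either Alyref KO morula neither Snrpb (0.0856 and 0.12) nor Oxt (0.198 and 0.292) was called.

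Genes called in both contrasts, which share no embryo, numbered 36, that is 4.28% of the 841 and 10.5% of the 342, and 32 of the 36 had the same direction. Over the 841 genes the KO and non-KO differences correlated at r 0.416 (rho 0.389) and had the same sign in 66.2%, and over all 18410 genes at r 0.233 (rho 0.207) and 56.5%, across genes that are not independent. Ficd, an enzyme of the endoplasmic reticulum stress response, and Cep89, a centrosomal protein, had similar point differences in both (-3.00 and -2.70 for Ficd, -2.50 and -2.0 for Cep89), but only the KO differences passed (adjusted p 0.0483 and 0.0462), and the Alyref cross non-KO morulae ran from 2.91 to 74.2 CPM for Ficd and from 16.5 to 145 CPM for Cep89. Both calls were lost with any 1 of the 5 KO morulae left out (adjusted p 0.0907 to 0.19 for Ficd, 0.0796 to 0.173 for Cep89).

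**Figure D4:**
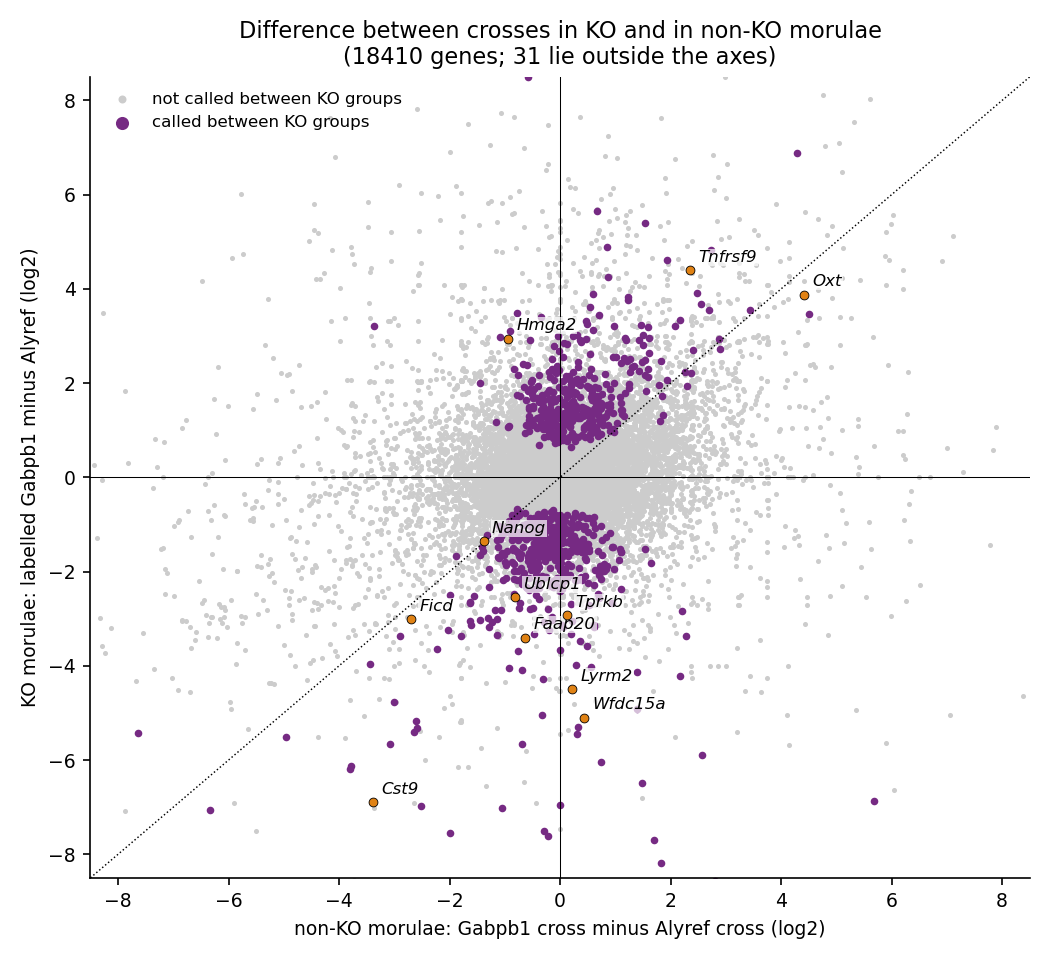
Log2 difference between the KO groups (y axis) against that between the non-KO morulae of the same crosses (x axis) for 18410 genes, 31 of which lie outside the axes (limit 8.5 in either direction), purple where called between KO groups, with the dotted line at equality. Nanog, Ficd and Oxt lie near the line, and Lyrm2, Tprkb, Wfdc15a and Hmga2 lie near a non-KO difference of 0 or on its other side.

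The epiblast and trophectoderm lists had medians nearer to 0 between the KO groups than between the non-KO morulae, a difference that was not tested. Their calls, and those of the other lists here, are read beside the 4.57% of all genes called. Of 20 epiblast and pluripotency genes, 2 were higher, Gdf3 and Dppa5a (log2 difference 0.98, adjusted p = 0.0424), and 1 lower, Nanog, with a median of 0.15 beside -0.97 between non-KO morulae. Dppa5a was not called with any 1 of the 5 left out (0.0674 to 0.28). Pou5f1, the Oct4 gene, measured 80.1 and 57.6 CPM in Alyref KO and 120, 92.7 and 118 CPM in labelled Gabpb1 KO (log2 difference 0.68, adjusted p = 0.181). edgeR called 0 of 19 trophectoderm genes (median 0.31, against 1.56 between non-KO), 0 of 17 primitive endoderm genes (median 0.36) and 0 of 23 blastocoel and junction genes (median 0.50). At an unadjusted p under 0.05 these lists held 1, 3 and 9 genes, and DESeq2 called 0, 1 (higher) and 2 higher with 1 lower. In lists of 17 to 23 genes, 0 calls do not show equal levels. Cdx2, a trophectoderm factor, measured 10.3 and 8.40 CPM in Alyref KO and 20.5, 3.89 and 10.8 CPM in labelled Gabpb1 KO. Embryos varied widely within a label: the trophectoderm list summed to 1936 and 908 CPM in Alyref KO and to 3391, 456 and 1310 CPM in labelled Gabpb1 KO, and the sign of its median changed without the first labelled Gabpb1 KO morula (-0.71) or the second Alyref KO morula (-0.11). In whole embryos, fewer cells of a type and less RNA per cell cannot be told apart.

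The stress, growth and metabolic lists, again beside 4.57% of all genes, held at most 3 calls each. Of 19 p53 targets and 19 genes of the Bcl2 family and caspases edgeR called 0 (medians 0.17 and 0.17), and of 17 glycolysis genes 0 (median 0.47, 1.43 between non-KO). At an unadjusted p under 0.05 the 3 lists held 2, 10 and 2 genes, and DESeq2 called 0, 3 higher with 1 lower, and 0. Of 24 antioxidant genes 2 were higher, Prdx2, a peroxiredoxin, and Gclc, of glutathione synthesis. Prdx2 measured 115 and 68.0 CPM in Alyref KO, 109 to 250 CPM in non-KO morulae and 311, 444 and 420 CPM in labelled Gabpb1 KO, above the other 7 (log2 difference 2.10, SE 0.40, adjusted p = 0.00964). Ebp was the 1 called of 23 cholesterol genes (1.49, adjusted p = 0.008) and Shmt2 of 21 ATF4 and unfolded protein response genes (1.52, adjusted p = 0.016). The de novo methylation cofactor Dnmt3l was the 1 called of 10 DNA methylation genes (1.36, adjusted p = 0.0251), and Peg3 of 19 imprinted genes (2.95, adjusted p = 0.012). Peg3 was low, with 10 and 39 counts in the Alyref KO morulae. Of 37 proteasome genes 2 were lower: Psmb10, an immunoproteasome subunit, at 1.46, 4.44 and 2.27 CPM against 13.6 and 20.7 CPM in Alyref KO (log2 difference -2.66, adjusted p = 0.0064), and Psmd10 (-1.15, adjusted p = 0.0442). The non-KO morulae held 19.2, 22.8 and 8.81 CPM of Psmb10 in the Alyref cross and 4.84 and 6.09 CPM in the Gabpb1 cross. Of 43 translation initiation genes 1 was higher, Eif4e3 (3.90, adjusted p = 0.00531), and 2 lower, Eif4a1 (-0.74, adjusted p = 0.0325) and Eif2ak1 (-0.83, adjusted p = 0.0486), and Eif4e3 also differed between the non-KO morulae (2.48, adjusted p = 0.036). Eif4e3 was near its detection limit, with 2 and 5 counts in the Alyref KO morulae. For Psmb10, Peg3, Gclc, Eif4e3 and Eif4a1 every morula of the Gabpb1 cross, KO or not, lay on one side of every morula of the Alyref cross. Top2a, a topoisomerase of dividing cells, was the 1 called higher in the replication and cell cycle list (1.62, adjusted p = 0.042). Without the second Alyref KO morula none of Prdx2 (0.126), Gclc (0.15), Ebp (0.0515), Shmt2 (0.121), Dnmt3l (0.0915), Peg3 (0.0664), Psmb10 (0.0764), Psmd10 (0.233), Eif4e3 (0.0743), Eif4a1 (0.272), Eif2ak1 (0.139) and Top2a (0.287) was called. Without the first, Prdx2 and Psmb10 alone among them were.

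**Figure D5:**
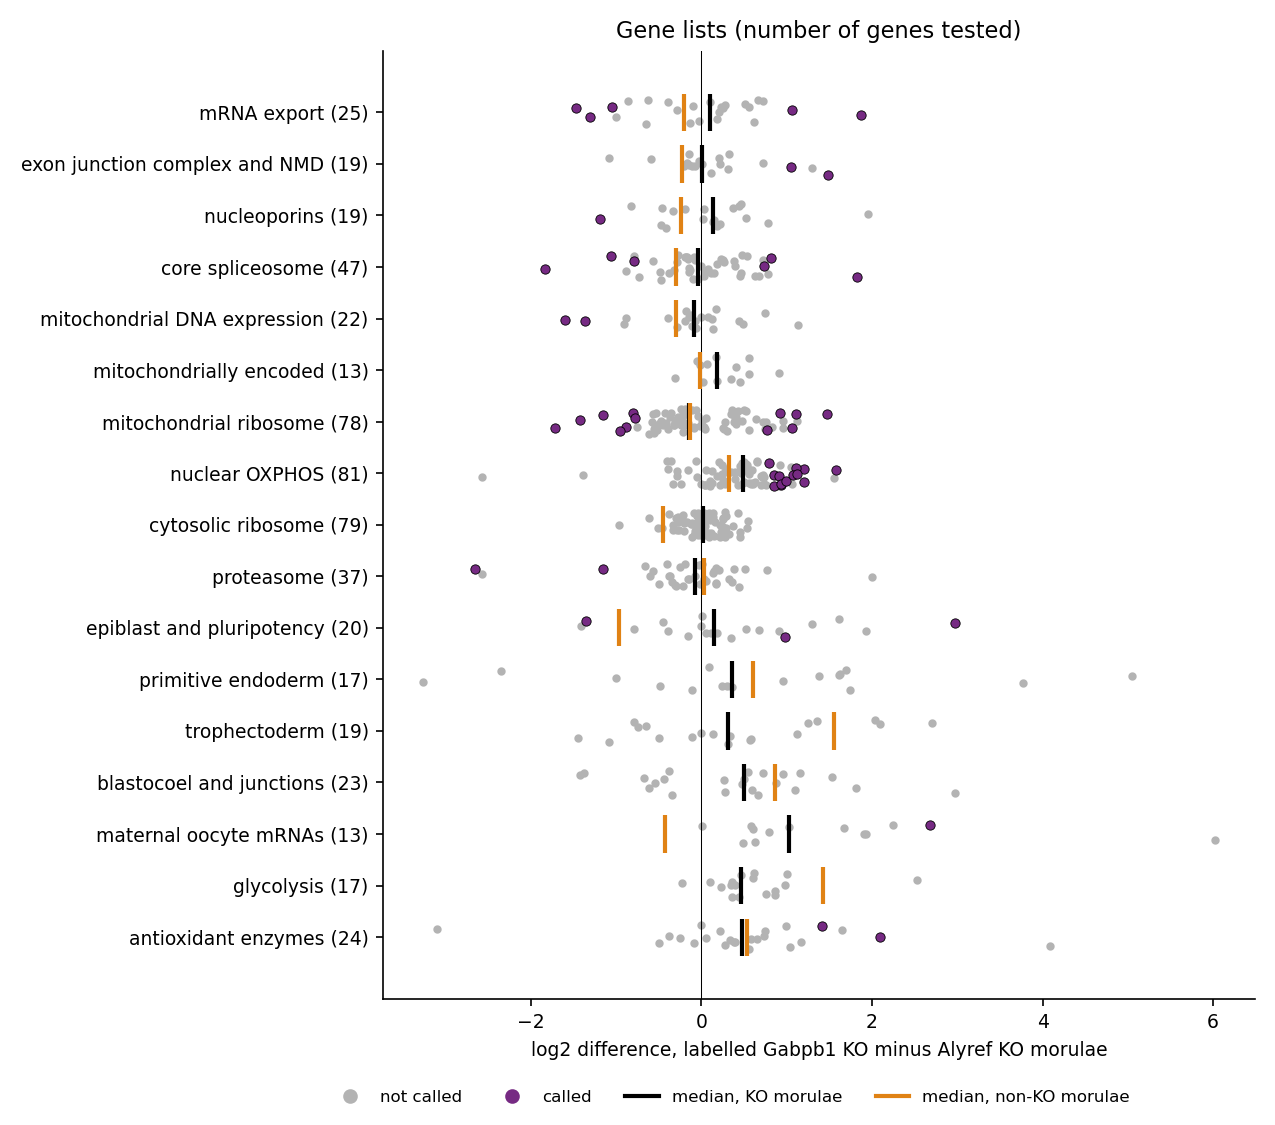
Log2 difference, labelled Gabpb1 KO minus Alyref KO (x axis), of each tested gene in 17 lists (y axis, number tested in brackets), purple where called, with the median between KO morulae in black and between non-KO morulae in orange. The 13 called OXPHOS genes all lie right of 0, and the epiblast and trophectoderm medians between KO groups (0.15 and 0.31) lie nearer to 0 than those between non-KO groups (-0.97 and 1.56).

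Markers of cells that could cling to an embryo were low. Of 14 cumulus and granulosa genes 2 were abundant enough to test, and Fshr, Cyp19a1, Has2 and Ptx3 had 0 counts in all 10 morulae. The list summed to 103 and 84.2 CPM in Alyref KO, 85.0, 121 and 72.7 CPM in labelled Gabpb1 KO and 50.3 to 122 CPM in non-KO morulae. Of 10 sperm genes 4 were tested, with sums of 56.8 and 35.6 CPM, 47.5, 32.8 and 83.1 CPM, and 44.0 to 88.1 CPM in the same groups, and Tnp1 was at 0 throughout. The KO groups overlapped in both sums.

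Calls were counted around the targeted genes. Within 10 Mb on each side of Gabpb1 15 of 236 genes were called (6.36%), around Alyref 6 of 177 (3.39%), beside 4.57% of all genes. Within 5 Mb on each side these were 9 of 124 (7.26%) and 5 of 145 (3.45%). Of the named genes, AA467197 and Mir147 lie at -4.01 Mb from Gabpb1, Snrpb at 3.52 Mb and Oxt at 3.92 Mb. Whether position bears on their calls was not tested. A divergent gene whose start lay within 1000 bases was present for 17.6% of lower, 19.2% of higher and 17.0% of tested protein-coding genes, and of 58 tested partners of lower genes 4 were lower as well, beside 55 of 1703 tested partners of all genes.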

How the data were processed

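PolyA RNA of 19 single embryos was sequenced. The authors deposited 1 table of read counts per gene with the gene's exon length; per the submitters' processing notes Trimmomatic, Trim Galore, cutadapt, STAR, featureCounts and the mm10 build were named. The file is named for FPKM but holds counts, so edgeR replaced the limma test planned for FPKM. The strand setting is not given in the sources used here.

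From the counts, a gene was kept when its FPKM (computed here from the deposited length) was 1 or more in at least 2 embryos, which left 18410 of 39262 genes with any count. 1 mean per group was fitted to all 19 embryos with edgeR 4.0.16 (R 4.3.3), TMM scaling and the quasi-likelihood F test. Every adjusted p is Benjamini-Hochberg over all genes tested, and called means under 0.05. CPM use the TMM-scaled total without the 92 ERCC rows. SE is that of the log2 difference. In simulated data (18410 genes, this comparison) 8%, 34%, 58% and 76% of 50 genes each, changed by 1, 2, 3 and 4 on the log2 scale, were recovered, with 5 wrong calls.

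Named genes were the 12 largest differences each way among called genes with separated KO values and a mean FPKM of 5 or more, the targeted genes, Nanog, and up to 3 called genes per list. The members and lists were chosen with earlier results of these data known. The alternatives were other scalings, filters, tools, pseudocounts, thinned libraries, a Y-linked covariate, a replicate block and leaving out each embryo; the first promoter window and the GC split were chosen after seeing the data.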

Additional observations from a re-analysis of the deposited data

Results flagged for a closer look

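In 13 named genes the difference between the KO groups was itself different from that between their non-KO counterparts (test of the KO difference minus the non-KO difference, edgeR's quasi-likelihood test, adjusted p under 0.05). The non-KO morulae enter this value too, and the cause was not tested.

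Of these 13, 7 had a more negative difference in KO morulae. Lyrm2 stood at -4.71 (adjusted p = 0.000767), Wfdc15a at -5.53 (0.0253), Tprkb at -3.05 (0.00601), Stn1 at -3.03 (0.0276), Faap20 at -2.78 (0.024), Mrps21 at -2.17 (0.0149) and Ublcp1 at -1.72 (0.0253). In all 7 the 3 morulae labelled Gabpb1 KO were below the other 7.

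The other 6 had a more positive difference. Gdf3 stood at 4.06 (adjusted p = 0.0349), Hmga2 at 3.89 (0.0244), Tmem160 at 2.46 (0.0349), Alyref at 1.77 (0.0484), Lsm7 at 1.74 (0.0348) and Mrpl49 at 1.67 (0.0402). In all 6 the 2 Alyref KO morulae were below the other 8, and in Lsm7 the labelled Gabpb1 KO morulae were also above the other 7. With each of the 10 morulae left out in turn, Lyrm2 and Tprkb passed every time, and the other 11 of the 13 missed the threshold at least once (highest adjusted p 0.203, for Alyref without the second non-KO morula of the Gabpb1 cross).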

How the results depend on the processing

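The 24 genes with the largest differences kept their sign in every setting tried, and 0 (KO morulae alone), 3 (ERCC scaling), 10 to 19 (1 embryo left out) and 18 or more (all other settings) of them were called. Between KO groups 841 genes were called, 9 with ERCC scaling, 521 with no filter, 0 with the KO groups alone, 1710 with DESeq2 (893 higher, 817 lower) and 148 to 927 with 1 embryo left out. Between non-KO morulae the 342 became 2 with ERCC scaling, 0 alone (2329 at an unadjusted p under 0.05), 1709 with DESeq2, 2712 with voom weights, 683 and 575 with limma on log2(FPKM + 1) and log2(FPKM + 0.1), and 0 to 2435 with 1 left out: 0 without the first or second Alyref cross embryo, 2435 without the third, 96 and 1 without a Gabpb1 cross embryo. The 167 of the KO difference against the non-KO difference became 10 with ERCC scaling, 0 alone (1995 unadjusted), 894 with DESeq2, 773 with voom weights, 271 with limma on log2(FPKM + 1) and 16 to 707 with 1 left out. ERCC scaling moved the non-KO median of all genes from -0.03 to 0.39. The ERCC ratio difference of -0.22 ran from -0.71 to 0.28, the latter without the second labelled Gabpb1 KO morula. CCGGAAGT in place of CCGGAAG gave 24.3% of lower genes for 39.9%, and the first promoter window 36.8%. The cause was not tested. Replicate numbers did not pair KO embryos (same-number correlations of deviations -0.020 and 0.015), and with the replicate block 594, 327 and 117 genes were called in the 3 contrasts. Changes of 1 on the log2 scale were mostly out of reach at this size.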
